A study of Mus musculus with 6 samples.

Results

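Transcripts of 9 intermediate filament genes were followed in mouse glomeruli, namely Vim, Nes, Des, Synm, Krt7, Krt8, Krt18, Krt19 and Krt20, out of 27179 genes in the deposited table. The genes were chosen by name, as the filaments of podocytes and mesangial cells (Vim, Nes, Des and Synm) and the keratins of simple epithelia (the other 5), and each was found by its NCBI Gene identifier. Glomeruli, the filtering units of the kidney, were isolated by perfusion with magnetic beads from male C57BL/6 mixed mice aged 9 weeks that had mild proteinuria. The 3 KO mice, with 1 library each, carried Parva-fl/fl together with hNPHS2Cre, a Cre driven by the promoter of the human podocin gene and therefore active in podocytes. The 3 WT mice, likewise with 1 library each, carried the same floxed alleles, Parva-fl/fl, without Cre. Parva encodes alpha-parvin, which joins integrin adhesions to actin, and the design sets glomeruli whose podocytes lose it against glomeruli that keep it. A promoter of this kind leaves the gene in endothelial and mesangial cells of the same glomeruli, and since only KO mice carried Cre, an effect of Cre itself cannot be told apart from the loss of Parva.

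Intermediate filaments are rope-like polymers of coiled-coil proteins, and each cell type builds them from its own set. Podocytes and mesangial cells, like other cells of mesenchymal character, contain vimentin, and podocytes also contain nestin. Desmin is the filament of muscle and of mesangial cells, and it is widely used in rodents as a stain for injured podocytes. Keratins work as pairs of a type I and a type II chain, and keratin 8 with keratin 18 is the basic pair of simple epithelia, including the epithelium of the tubules and of Bowman's capsule.

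Of the filament genes of podocytes and mesangium, Des was lower in KO glomeruli (about 0.654 of the WT mean), while Vim and Nes did not pass the test and Synm lay at its threshold. Of the epithelial keratins, Krt8 and Krt18 were higher in KO (2.79 and 3.17 times the WT mean), Krt7 did not pass, and Krt19 and Krt20 were too low to be tested. In all, 7 of the 9 genes had a mean of at least 10 normalised counts, which are reads scaled by a size factor per library, and 3 of these 7 passed the test, against 22.1% of the 13946 genes tested. The test was limma on log2(normalised count + 1), with an adjusted p below 0.05 as the threshold. By direction, 13.5% of the genes tested were called higher in KO and 8.58% lower, and the median log2 fold change of all of them was -0.006. In limma no member passed when WT-2, WT-3, KO-2 or KO-3 was left out, fits in which at most 4 of all genes were called, and 4 passed without WT-1. Values of single libraries are given below in the order of the library numbers, 1 to 3, first for WT.

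**Figure D1:**
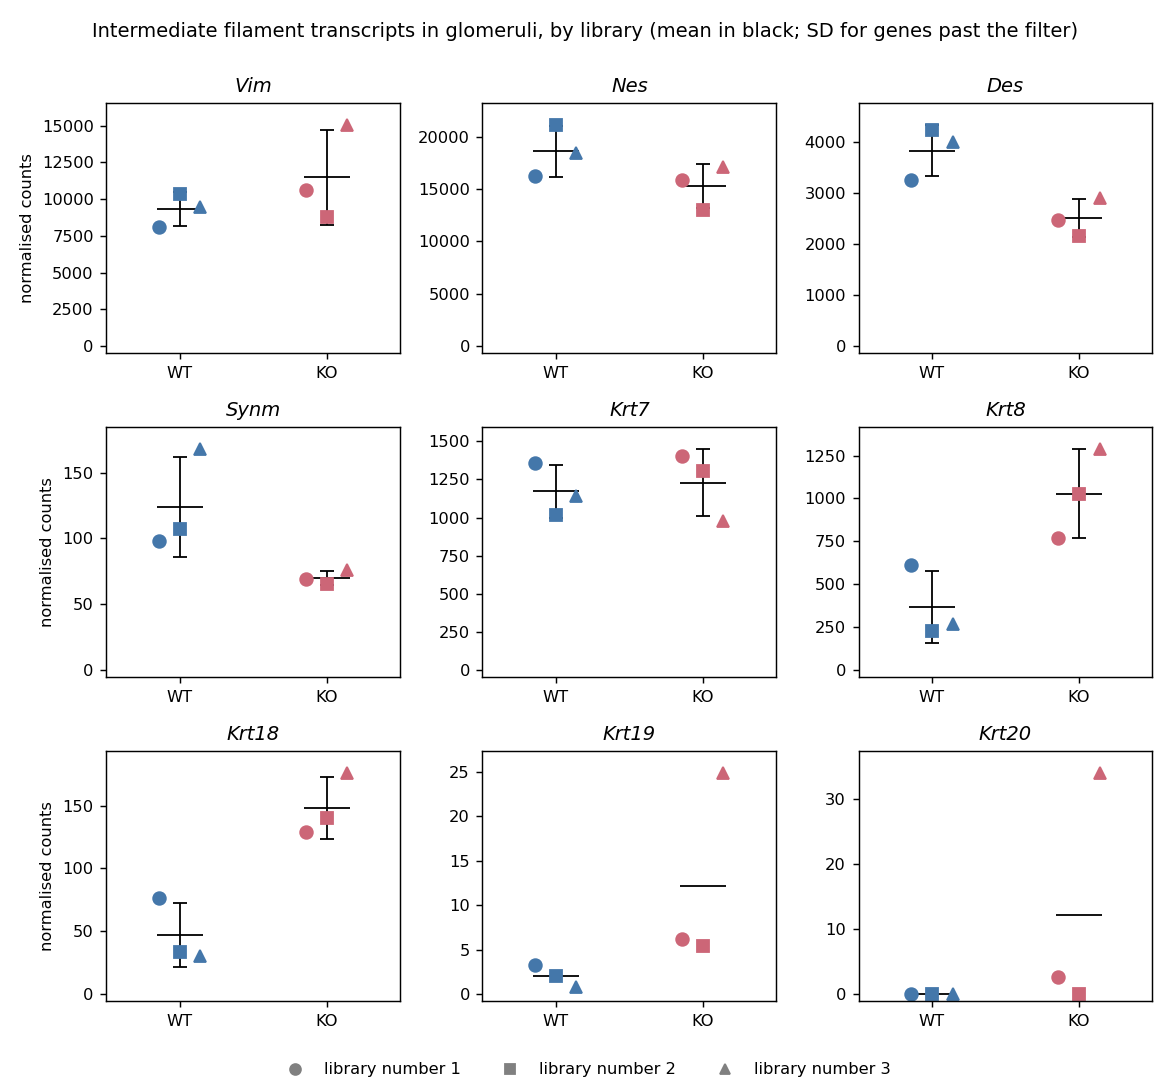
Normalised counts of the 9 genes in each library (linear axes from 0, 1 panel per gene), with WT in blue and KO in red, the symbol giving the library number, and the group mean as a black bar with its SD for the 7 genes past the filter. Des and Synm have all their KO points below the WT points, Krt8 and Krt18 have all of theirs above, and Krt20 has its highest value, 34, in KO-3.

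The libraries held 11886828 to 20552984 reads. Part of the WT reads lay in 1 gene, Eif5b, with means of 1051000 normalised counts in WT and 3345 in KO. Its log2 fold change had an SE of 2.407 and did not pass (limma adjusted p = 0.328). Parva itself lay at 6585 to 7890 normalised counts in WT and at 1942 to 2338 in KO, so every library matched its label. Podocyte markers were high in all 6 libraries, with summed normalised counts of 142519 to 282007 over 14 genes. Tubule RNA was present too: 16 proximal tubule markers summed to 109661, 49826 and 49035 normalised counts in the WT libraries and to 142564, 207112 and 201452 in the KO libraries, and all 16 were called higher in KO. WT-1 thus stood apart from the other WT libraries. KO-3 stood apart by 7 tubule injury markers (30312 in sum, against 3539 to 13671 elsewhere) and 10 immune markers (5070, against 1201 to 1952). In KO-3, Spp1 gave 22758 of the former sum and Cd74 3089 of the latter. All of these markers but Sox4 and Itgam had their highest value in KO-3. For Ptprc and Lyz2 the excess over WT-3 was small (171 against 142, and 898 against 837). Of the 14 podocyte markers 7 were called lower and none higher, as were 8 of 10 mesangial and 9 of 10 endothelial markers. Among 5 tested smooth muscle markers, 1 was called higher and 1 lower. Of 7 parietal epithelial markers 2 were called higher, of 14 distal tubule and collecting duct markers 3 (0 in edgeR and 7 in DESeq2) and of 7 injury markers 2. All 14 distal tubule and collecting duct markers had a log2 fold change above 0 (median 1.32), and 11 had an unadjusted limma p below 0.05. Of 9 tested immune markers 0 were called in limma, edgeR and DESeq2, and 0 had an unadjusted limma p below 0.05. In whole glomeruli, fewer cells of a type and less RNA per cell cannot be told apart.

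Per kilobase of exon, Vim was the most abundant of the 9 genes in both groups, with 5070 ± 632 normalised counts per kb in WT and 6260 ± 1760 in KO (SD, n = 3). Nes followed at 3040 ± 398 in WT and 2500 ± 345 in KO, and then Des at 1260 ± 166 and 827 ± 123. The order below these was Krt7, Krt8, Krt18 and Synm in both groups, and Krt19 and Krt20 were too low to be ranked against each other. Down to Synm, neighbours in this order were separate in WT, in that no library of the lower gene reached any library of the higher gene. In KO the span of Des (711 to 956 per kb) overlapped that of Krt7 (618 to 885), which in turn overlapped that of Krt8 (426 to 714). Krt8 was at 205 ± 117 per kb in WT and at 570 ± 144 in KO, and its partner Krt18 at 33.4 ± 18.2 and 106 ± 17.4. Synm was at 8.9 ± 0.707 per kb in KO, inside the span of Krt19 there (3.92 to 18.1), and Krt20 ran from 0 to 17.7 across the same libraries. The lengths are those of GENCODE M21 exons within the span of the RefSeq gene, and the authors' own gene models may differ from them, most of all for Krt7, which GENCODE extends farther at both ends.

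The promoters of 4 genes are given here because the results turn on the pairs Vim and Des, and Krt8 and Krt18. Each is the 250 bases before the RefSeq start site on the strand of the gene (RefSeq, GRCm38.p6, the assembly also called mm10): chr2:13574061-13574310 on the plus strand for Vim, chr1:75360042-75360291 on the plus strand for Des, chr15:102004343-102004592 on the minus strand for Krt8 and chr15:102027966-102028215 on the plus strand for Krt18. Capitals mark matches, on either strand, to the TATA box (TATAA), the GC box (GGGCGG), the CCAAT box (CCAAT), the AP-1 site (TGANTCA) or the CArG box of serum response factor.
Vim: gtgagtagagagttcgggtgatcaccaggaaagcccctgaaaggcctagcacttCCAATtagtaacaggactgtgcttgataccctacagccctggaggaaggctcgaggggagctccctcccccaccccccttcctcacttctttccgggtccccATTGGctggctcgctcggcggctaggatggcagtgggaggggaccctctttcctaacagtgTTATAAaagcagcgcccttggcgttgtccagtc
Des: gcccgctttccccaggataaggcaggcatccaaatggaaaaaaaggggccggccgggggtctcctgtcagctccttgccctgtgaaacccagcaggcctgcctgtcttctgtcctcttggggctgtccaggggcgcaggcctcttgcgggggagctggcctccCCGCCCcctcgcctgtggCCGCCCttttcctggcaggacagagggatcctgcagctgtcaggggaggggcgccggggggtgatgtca
Krt8: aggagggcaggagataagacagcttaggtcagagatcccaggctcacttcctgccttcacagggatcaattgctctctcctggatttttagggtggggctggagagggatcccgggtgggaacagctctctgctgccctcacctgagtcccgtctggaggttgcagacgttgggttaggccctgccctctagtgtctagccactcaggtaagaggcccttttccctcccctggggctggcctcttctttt
Krt18: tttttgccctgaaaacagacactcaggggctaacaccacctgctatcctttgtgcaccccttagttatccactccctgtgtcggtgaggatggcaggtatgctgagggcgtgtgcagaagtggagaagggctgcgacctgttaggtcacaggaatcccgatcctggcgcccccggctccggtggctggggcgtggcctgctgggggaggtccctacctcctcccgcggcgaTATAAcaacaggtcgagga
Vim had a TATAA match 32 bases before its start, overlapped by a match on the other strand, and CCAAT matches at 94 and 196 bases. Des had no TATAA match but had GC boxes, both on the other strand, at 69 and 87 bases. Krt18 had TATAA at 19 bases, and Krt8 had none of the 5 motifs in this window, although GENCODE places the starts of Vim, Krt8 and Krt18 farther upstream. None of the 8 members with an entry in the table (Krt19 had none) held an AP-1 or CArG match, motifs that 6.75% and 1.47% of all 32851 such windows hold. TATAA was in 22.8% of all windows, the GC box in 32.7% and CCAAT in 33.8%. Vim and Des therefore differed in the motifs found, as did Krt8 and Krt18.

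Vim encodes vimentin, the common filament of mesenchymal cells. Vim (NCBI Gene 22352; mm10 chromosome 2, 13574311 to 13582826) reached 8068, 10370 and 9463 normalised counts in the WT libraries, and 10634, 8781 and 15047 in the KO libraries. KO-2 lay within the WT values, KO-1 just above them and KO-3 far above, so the groups overlapped. The log2 fold change was 0.28 (SE 0.21, 95% interval -0.23 to 0.78, limma adjusted p = 0.372), and without KO-3 it was 0.06 (limma adjusted p = 0.822). KO-3 is also the library with the highest injury and immune markers, and their part in its Vim level was not tested.

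Nes encodes nestin, a large filament protein that copolymerises with vimentin and that adult kidneys make mainly in podocytes. Nes (NCBI Gene 18008; mm10 chromosome 3, 87971093 to 87980451) stood at 16257, 21126 and 18458 in the WT libraries and at 15842, 12983 and 17109 in the KO libraries, in normalised counts. KO-3 exceeded WT-1, so the groups overlapped, with a log2 fold change of -0.28 (SE 0.18, 95% interval -0.70 to 0.13, limma adjusted p = 0.271). Set against the mean log2 level of the 14 podocyte markers, Nes differed by 0.31 between KO and WT (two-sided exact permutation p = 0.2), with 1.27, 1.31 and 1.81 in the KO libraries against 1.01 to 1.30 in WT, so most of the difference lay in KO-3. The ratio of Nes to Nphs1, the gene of the podocyte protein nephrin, was 0.94, 1.02 and 0.899 in WT and 0.84, 0.8 and 1.39 in KO, below all WT libraries in KO-1 and KO-2 and above them in KO-3. Neither of these podocyte references gave a direction for Nes that all KO libraries shared. Relative to the mean log2 level of 10 endothelial markers, Nes was at 2.1 ± 0.09 in WT and 2.46 ± 0.05 in KO (SD, n = 3). All KO libraries lay above all WT libraries there (two-sided exact permutation p = 0.1). However, 9 of those 10 markers were themselves called lower in KO.

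Des encodes desmin. Des (NCBI Gene 13346; mm10 chromosome 1, 75360292 to 75368579) gave 3261, 4223 and 3998 normalised counts in the WT libraries, against 2468, 2151 and 2894 in the KO libraries. Every KO library was below every WT library. The mean fell from 3827 ± 503 in WT to 2505 ± 373 in KO (SD, n = 3), which is -0.61 on the log2 scale (SE 0.15, 95% interval -0.96 to -0.27, limma adjusted p = 0.0321). The adjusted p was above the threshold without any single library other than WT-1 (0.0627 to 0.116). The 10 mesangial markers all had a log2 fold change below 0, and 8 were called lower. Their sums were 64147 to 78006 in WT and 48860 to 54747 in KO. Des minus their mean log2 level was 0.09 ± 0.16 in WT and 0.21 ± 0.21 in KO (SD, n = 3, two-sided exact permutation p = 0.5). The ratio of Des to 1 of them, Pdgfrb, was 0.664, 0.611 and 0.539 in WT and 0.735, 0.721 and 0.964 in KO. That ratio was higher in every KO library, and Pdgfrb itself had a log2 fold change of -1.02. The part of the mesangial share in the lower Des was not tested. When the mean log2 level of the proximal tubule markers was added to the model, the log2 fold change of Des was -0.22 (95% interval -0.79 to 0.34, limma adjusted p = 1).

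Synm encodes synemin, which links desmin and vimentin filaments to adhesion complexes. Synm (NCBI Gene 233335; mm10 chromosome 7, 67730161 to 67759742) was a minor transcript, at 97.8, 107 and 168 normalised counts in WT and 69.1, 65 and 76 in KO. The groups did not overlap, and WT-3 stood above the other WT libraries. The log2 fold change was -0.78 (SE 0.23, 95% interval -1.32 to -0.24), with a limma adjusted p of 0.0502, at the edge of the threshold. Of 19 alternatives, Synm was called lower in 5. With other scalings the limma adjusted p was 0.0494 (TMM) and 0.0439 (upper quartile). It was 0.0497 with a filter at a mean of 50 and 0.0252 without WT-1, and DESeq2 gave 0.0213. The other 14 did not call Synm, among them edgeR on the same genes (0.0512), no filter (0.0645) and limma without a variance trend (0.0636). Nor did the replicate block (0.0926) or any fit without 1 library other than WT-1 (0.0895 to 0.149). An edgeR fit without a filter, added after the data were seen, gave 0.048. Ttc23 spans the whole of Synm on the opposite strand, and the strand setting of the counting is not given. Whether exons of the 2 genes overlap, and so whether they share reads, was not tested. Relative to the mesangial markers, Synm differed by -0.04 between the groups (two-sided exact permutation p = 0.9).

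Vimentin and desmin can share filaments, and their transcripts were also set against each other within each library. This ratio was chosen after the values were seen and is given without a test. It pools the cell types of whole glomeruli, so it does not give the composition of filaments within a cell. The ratio of Vim to Des in normalised counts was 2.47, 2.46 and 2.37 in the WT libraries and 4.31, 4.08 and 5.2 in the KO libraries. The WT libraries were nearly equal in this ratio, and each KO library was above them. Vim was likewise higher relative to the mesangial marker mean, by 1.37 ± 0.18 log2 units in WT and 2.38 ± 0.39 in KO, and relative to the podocyte marker mean, by 0.16 ± 0.11 in WT and 1.02 ± 0.52 in KO (SD, n = 3). The latter was 0.69 in KO-1, 0.75 in KO-2 and 1.63 in KO-3. For both marker means, the two-sided exact permutation p was 0.1, the smallest that 3 against 3 libraries allow. The references themselves were lower in KO. The mesangial mean was 11.62 to 12.02 in WT and 11.02 to 11.13 in KO. The podocyte mean was 12.83 to 13.16 in WT and 12.25 to 12.68 in KO. Des was lower as well, while Vim alone had a log2 fold change of 0.28 (limma adjusted p = 0.372) with overlapping groups. These relative values therefore do not show a rise of Vim itself. Vimentin is also made by leukocytes and by injured tubule cells, whose markers were highest in KO-3. The summed injury markers were 7749, 3539 and 5096 normalised counts in the WT libraries and 11465, 13671 and 30312 in the KO libraries, and their part in the ratio was not tested.

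**Figure D2:**
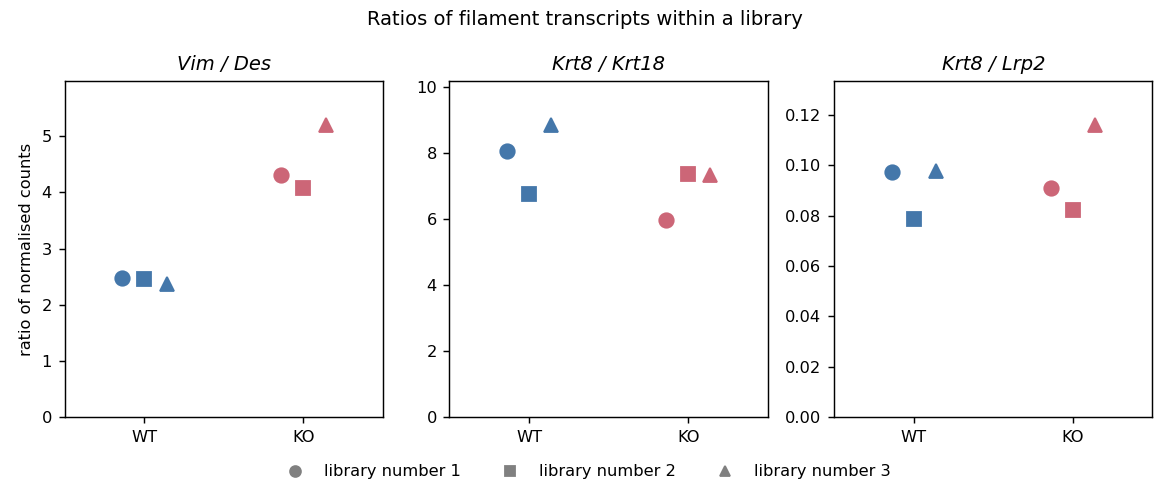
Ratios of normalised counts within each library (linear axes from 0), for Vim to Des, Krt8 to Krt18 and Krt8 to Lrp2, with WT in blue, KO in red and symbols for the library number. Vim to Des is 2.37 to 2.47 in WT and 4.08 to 5.2 in KO, while the other ratios overlap between the groups.

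Krt8 and Krt18, the type II and type I partners of simple epithelia, lie 23.9 kb apart on chromosome 15. Krt8 (NCBI Gene 16691; mm10 chromosome 15, 101996711 to 102004342) was at 612, 227 and 269 normalised counts in the WT libraries, against 769, 1029 and 1288 for KO. Krt18 (NCBI Gene 16668; mm10 chromosome 15, 102028216 to 102032026) had 76, 33.6 and 30.5 in WT and 129, 140 and 176 in KO. For both genes the KO libraries lay above all WT libraries, WT-1 was the highest WT library and KO-3 the highest of all. Krt8 rose by a log2 fold change of 1.59 (SE 0.37, 95% interval 0.72 to 2.46, limma adjusted p = 0.031) and Krt18 by 1.76 (SE 0.35, 95% interval 0.93 to 2.58, limma adjusted p = 0.0286). Without WT-1 these values were 2.02 and 2.16 (limma adjusted p = 0.000887 and 0.000838), and both genes were also called without KO-1, but not without WT-2, WT-3, KO-2 or KO-3 (limma adjusted p = 0.0704 to 0.111). The ratio of Krt8 to Krt18 was 6.74 to 8.84 in WT and 5.95 to 7.36 in KO, so the groups overlapped in the balance of the pair.

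Both keratins were lowest in the WT libraries with the lowest proximal tubule markers, WT-2 and WT-3, but highest in KO-3, where those markers (mean log2 level 13.05) were slightly below KO-2 (13.17). Over the 6 libraries, which fall into 2 groups, Krt18 correlated at r = 0.98 with the proximal tubule marker mean and at -0.97 and -0.95 with the mesangial and podocyte marker means, as a description. The ratio of Krt8 to Lrp2, the gene of the proximal tubule receptor megalin, was 0.0972, 0.0786 and 0.0976 in the WT libraries and 0.0909, 0.0821 and 0.116 in the KO libraries. Relative to the mean log2 level of the 16 proximal tubule markers, Krt8 stood at -3.03 ± 0.16 in WT and -2.96 ± 0.23 in KO, and Krt18 at -5.97 ± 0.07 and -5.73 ± 0.27 (SD, n = 3, two-sided exact permutation p = 0.8 and 0.3). With that mean in the model the log2 fold change of Krt8 was -0.08 (95% interval -0.76 to 0.59) and that of Krt18 was 0.32 (95% interval -0.64 to 1.28; limma adjusted p = 1 for each). The covariate itself was higher in every KO library, so a genotype difference that runs with it cannot be told apart from tubule RNA. Relative to 7 parietal epithelial markers, Krt8 was at 1.41 ± 0.50 in WT and 2.22 ± 0.34 in KO, and Krt18 at -1.53 ± 0.56 and -0.55 ± 0.18 (SD, n = 3, two-sided exact permutation p = 0.2 and 0.1). These 7 markers all had a log2 fold change above 0 themselves (median 1.08), and how far tubule RNA adds to them was not tested. A processed pseudogene, Krt8-ps, can share reads with Krt8, and the lincRNA Gm36026 overlaps Krt8 on the opposite strand.

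**Figure D3:**
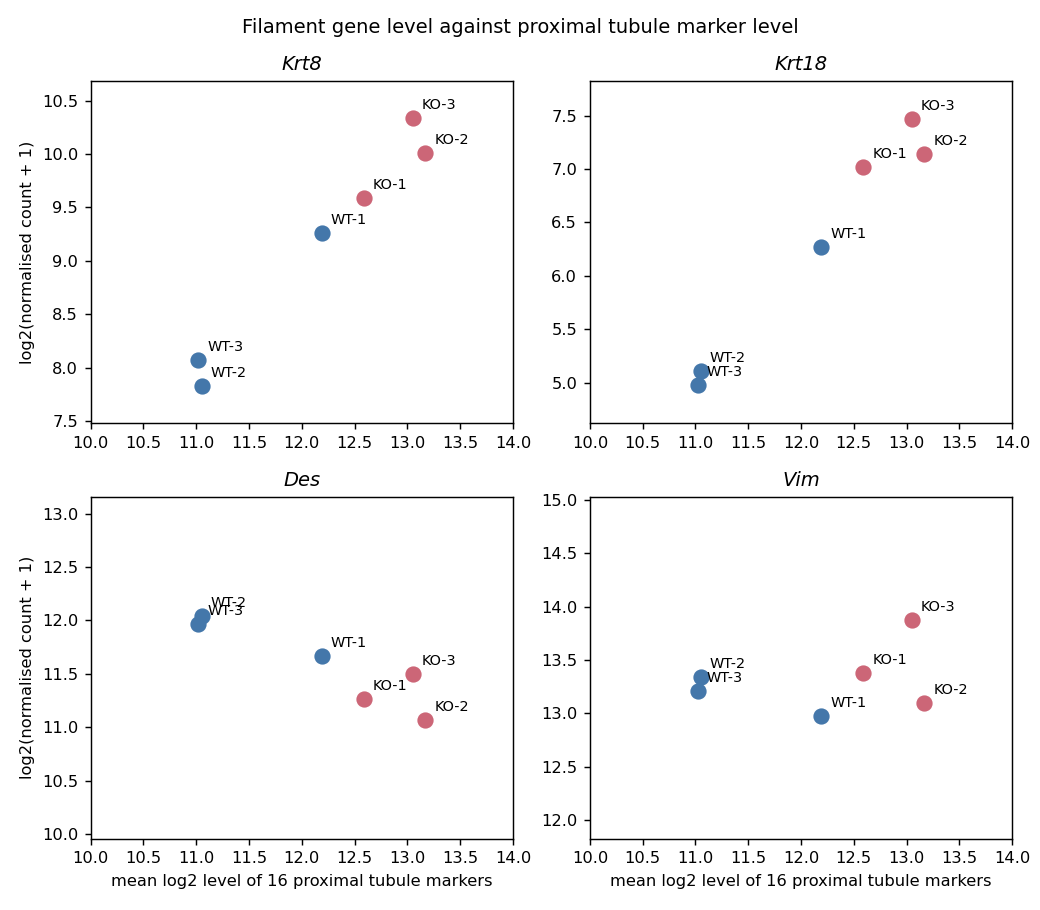
Level of Krt8, Krt18, Des and Vim, as log2(normalised count + 1), against the mean log2 level of 16 proximal tubule markers in the 6 libraries, WT in blue and KO in red; every panel spans the same range on its vertical axis. Krt8 and Krt18 are low where the tubule markers are low, with WT-1 next to KO-1, and Krt8, Krt18 and Vim are all highest in KO-3, although KO-2 has the highest tubule markers.

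Krt7, a type II keratin of collecting ducts and urothelium, did not pass the test. Krt7 (NCBI Gene 110310; mm10 chromosome 15, 101412403 to 101427806) had 1357, 1015 and 1140 normalised counts in WT and 1403, 1304 and 980 in KO. The lowest value of all was in KO-3 and the highest in KO-1, so the groups overlapped fully. Its log2 fold change was 0.06 (SE 0.16, limma adjusted p = 0.799), with a 95% interval from -0.32 to 0.45, and its sign turned without WT-2 or without KO-1 (-0.03 and -0.04). Krt8 stood at 0.223 to 0.451 of the Krt7 count in WT and at 0.548 to 1.31 in KO. Relative to 14 distal tubule and collecting duct markers, Krt7 was at 1.43 ± 0.69 log2 units in WT and 0.18 ± 0.22 in KO (SD, n = 3, two-sided exact permutation p = 0.1), lower in every KO library. All 14 of these markers had a log2 fold change above 0 themselves, with a median of 1.32. The relative values therefore do not show a fall of Krt7 itself. Defining urothelial markers were close to absent: Upk2 was at 0 in all 6 libraries, and 8 urothelial genes together reached 19.8 to 38.6 normalised counts. The antisense gene Gm671 overlaps Krt7.

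Krt19 and Krt20 had means of 7.1 and 6.11 normalised counts over the 6 libraries, below the filter, and are given as reads. Krt19, a small type I keratin of ducts, was counted in 3, 2 and 1 reads in the WT libraries, and in 7, 5 and 22 reads in the KO libraries. Its KO values of 6.2, 5.41 and 24.9 normalised counts were above the WT values of 3.26, 1.98 and 0.823 (two-sided exact permutation p = 0.1), and KO-3 was far above the other libraries. Krt20, a type I keratin of urothelium and gut that injured tubule cells also make, had 0 reads in each WT library, which allows up to 3.26, 2.97 and 2.47 normalised counts there, taking 3 reads as the limit of a count of 0. It had 3 reads in KO-1, 0 in KO-2 and 30 in KO-3, or 34 normalised counts. The Krt20 signal was thus almost wholly that of KO-3. In limma without a filter neither gene passed (adjusted p = 0.0844 for Krt19 and 0.199 for Krt20), nor in edgeR without a filter (0.075 and 0.113), an alternative added after the data were seen.

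Havcr1 and Lcn2, which injured tubule cells switch on, also had their highest values in KO-3. Havcr1, the gene of kidney injury molecule 1, had 7.6, 7.92 and 10.7 normalised counts in WT and 27.5, 43.3 and 678 in KO (limma adjusted p = 0.0663). Lcn2 had 8.69, 2.97 and 2.47 in WT and 19.5, 23.8 and 357 in KO (limma adjusted p = 0.0574). KO-3 was the highest library for Havcr1, Lcn2, Krt20, Krt19, Krt8, Krt18 and Vim alike, while Krt7 was at its lowest there. With 1 such library, whether this state belongs to the genotype was not tested.

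**Figure D4:**
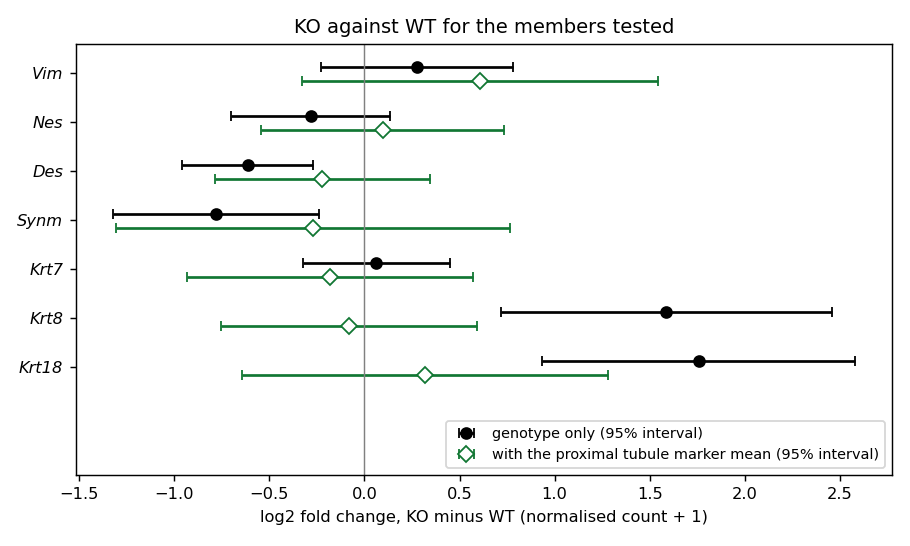
Log2 fold change of the 7 members past the filter, KO minus WT, with 95% intervals, from limma with genotype only (black) and with the mean of the proximal tubule markers added (green, open). The intervals of Des, Synm, Krt8 and Krt18 leave out 0 with genotype only, and no interval does so with that mean added.

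Across the libraries, 4 of the 7 tested members (Des and Synm lower, Krt8 and Krt18 higher) had no overlap between KO and WT, against 45.1% of all genes tested (23.2% higher in KO and 21.9% lower). With 7 genes, such a count is near the share of all genes.

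Among the other keratins, Krt80 was lower in KO and ran against Krt8 and Krt18. Of 19 other keratin genes, 6 were at 0 in all libraries and only Krt10, Krt80 and Krt222 passed the filter. Krt80, a type II keratin, had 282, 307 and 270 normalised counts in WT and 140, 131 and 166 in KO, with no overlap. Its mean fell from 286 ± 18.7 in WT to 146 ± 17.9 in KO (SD, n = 3), or -0.98 on the log2 scale (SE 0.13, limma adjusted p = 0.0286). With the mean of the proximal tubule markers in the model its log2 fold change was -0.96, close to that without it, at an unadjusted p of 0.0113 and a limma adjusted p of 1. Krt10 did not pass (log2 fold change 0.39, limma adjusted p = 0.221), and Krt5, a keratin of basal cells, stayed at or below 1.77 normalised counts. Of 11 other filament and lamin genes, Lmna, Lmnb1 and Lmnb2, which build the nuclear lamina, passed the filter and 0 passed the test in limma, edgeR or DESeq2 (0 at an unadjusted limma p below 0.05), with log2 differences of -0.08, 0.04 and -0.06 (limma adjusted p = 0.659, 0.888 and 0.805).

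Of 16 genes for filament linkers and desmosomes, where keratin filaments are anchored, 14 were tested, 4 were called higher and none lower, with a median log2 fold change of 0.17. Dsg2, a desmosomal cadherin, rose by 1.77 on the log2 scale, with means of 32.3 ± 9.27 for WT and 113 ± 34.2 for KO (SD, n = 3; limma adjusted p = 0.0286). Evpl, which encodes envoplakin, a linker of keratins to the cell border, rose by 1.46 on that scale, with means of 65.2 ± 10.4 for WT and 180 ± 13.6 for KO (SD, n = 3; limma adjusted p = 0.0286), and its libraries were the most even of the 4 genes. Pkp3 and Pkp4, of the plakophilin family, rose as well, by 1.48 and 0.68 on the log2 scale (limma adjusted p = 0.0347 for Pkp3 and 0.0304 for Pkp4). With the mean of the proximal tubule markers in the model, these changes were 1.06 for Dsg2, 1.08 for Evpl, -0.02 for Pkp3 and 0.05 for Pkp4 (limma adjusted p = 1 for each). Plec, which encodes plectin, the main linker of vimentin and desmin, averaged 1317 ± 98.6 for WT and 1102 ± 84.7 for KO (SD, n = 3) and did not pass (log2 fold change -0.26, limma adjusted p = 0.0967). Of 7 chaperones and regulators of filaments 0 passed in limma or edgeR and 1 in DESeq2 (1 at an unadjusted limma p below 0.05). Cryab, a chaperone of desmin, had a log2 fold change of -0.08 (limma adjusted p = 0.64).

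**Figure D5:**
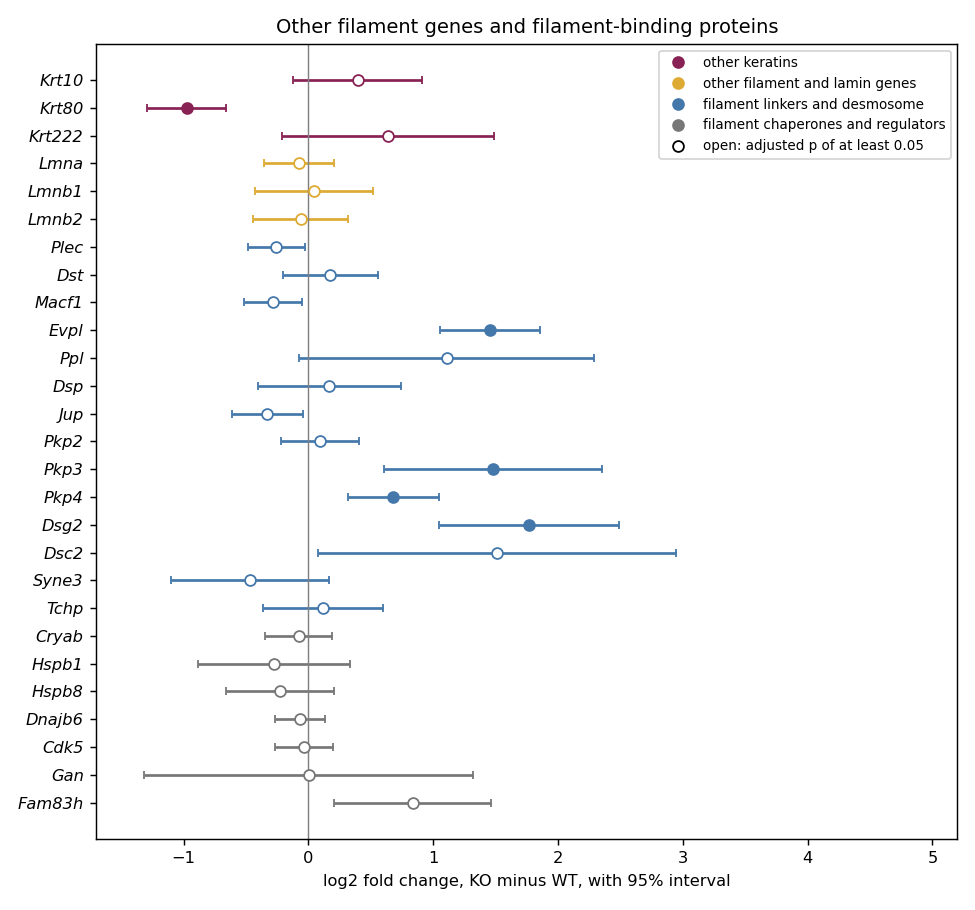
Log2 fold change, KO minus WT, with 95% intervals from limma, for the 27 related genes past the filter in 4 lists; filled points passed an adjusted p of 0.05 and open points did not. Krt80 is the filled point below 0, and Evpl, Pkp3, Pkp4 and Dsg2 are the filled points above it.

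Ranked by Pearson correlation of log2 levels over the 6 libraries, among 11366 named genes with a mean of at least 50, the genes most like Krt8 were Bspry, Enpp6 and Thtpa (r = 0.999 for each). Those most like Krt18 were Selenbp2, Car5b and Inmt (r = 0.999, 0.997 and 0.997), and those most like Des were Chd2, Ica1 and Ets2 (r = 0.999, 0.998 and 0.998). The genes most like Vim were Nfkb2, Xpa and Limk2 (r = 0.981, 0.977 and 0.964). With 6 libraries in 2 groups and so many genes ranked, values of this size are a description only, and all the points share their libraries.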

How the data were processed

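RNA of whole glomeruli was sequenced from 3 KO and 3 WT mice, grouped by the sample titles, with a directional kit per the labels' protocols. The authors deposited a signal, normalised counts per the file headers, which is the read count of a gene over its library's size factor. From the values, 100% of the values were whole multiples of 1 step per library at a tolerance of 0.01, so whole reads could be recovered. Per the submitters' processing notes, the build was mm10 and the tools included DESeq2 2.11.40.6, featureCounts 1.6.4, HISAT2 2.1, cutadapt 1.16.5 and bcl2fastq 2.19. The sources used here do not give the strand setting, the annotation or the treatment of reads with several positions. Identifiers were named from RefSeq (25275) and GENCODE M21 (25293 in all). The 1886 unnamed identifiers, with 0.493% to 1.29% of the reads, stayed in the tests.

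Groups were compared in R 4.3.3 by limma 3.58.1, using a variance trend, on log2(normalised count + 1), for 13946 genes with a mean of at least 10, genotype as the only term, two-sided, with Benjamini-Hochberg adjustment over all of them. Fold changes on this scale understate those of low genes. Intervals are 95%. On counts simulated for 13936 genes in KO against WT, the steps recovered 92% of 100 genes with a 4-fold change and 53% of 100 with a 2-fold change and made 10 false calls. Alternatives were scalings, pseudocounts, filters, edgeR 4.0.16, DESeq2 1.42.0, a replicate block, the mean of the proximal tubule markers as a covariate, and leaving out each library. Limits for a count of 0 cover counting error only. Replicates of a group all differed by more than sampling noise (lowest chi-square over its degrees of freedom 22.1). The series' design text gives 3 mice per group, so p-values measure the spread between mice of a group. The members and lists were chosen with earlier results of these data known, and the promoter motifs with the sequences in view. Named were the members, Parva, up to 4 genes past the threshold with the smallest adjusted p in each of 4 lists of related genes, and the 3 genes most correlated with each of Vim, Des, Krt8 and Krt18; other genes are named as markers or were chosen after their values were seen.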

Additional observations from a re-analysis of the deposited data

How the results depend on the processing

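The counts of called genes were fragile. Against 3085 genes and 3 members in limma, edgeR called 2841 genes and DESeq2 3810. limma without the variance trend called 1 gene and 0 members (5305 genes at an unadjusted p below 0.05), the replicate block 0 genes and 0 members (4284), and the mean of the proximal tubule markers as a covariate 0 genes and 0 members (384). For Des, Krt8 and Krt18 the limma adjusted p was 0.0572, 0.0565 and 0.0539 without the trend. In the replicate block it was 0.0886, 0.0868 and 0.0868. Leaving out 1 library in limma gave 0 to 4294 genes and 0 to 4 members. In the other settings 3 or 4 members were called, the fourth being Synm. With the covariate the direction turned for Krt8 (-0.081), Krt7 (-0.18) and Nes (0.10), and Krt7 ranged from -0.041 to 0.22 over the fits without 1 library. Des, Synm, Krt18 and Vim kept their direction in all 19 alternatives, from -0.73 to -0.22 for Des, -0.93 to -0.27 for Synm, 0.32 to 2.16 for Krt18 and 0.06 to 0.61 for Vim. The cause of these shifts was not tested. Deviations of same-numbered libraries from their group means correlated at -0.23, -0.19 and -0.01, and those of libraries with other numbers at -0.2 to 0.34. These values gave no sign that the replicate numbers pair the samples, but so few libraries cannot exclude it. At 0 to 30 reads, Krt19 and Krt20 are limited by depth.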
